A study of Mus musculus with 4 samples.

Results

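The interleukin 1 family and its receptors were followed through liver non-parenchymal cells of mice with and without diet-induced steatohepatitis. Its members were chosen by gene symbol, and all 10, of 32285 genes in the deposited matrices, were found: the ligands Il1a, Il1b, Il1f9, Il18 and Il33, the antagonist Il1rn, and the receptor genes Il1r1, Il1r2, Il18r1 and Il1rl1. Male C57BL/6J mice received either the Fibrosis and Tumor (FAT) MASH regimen, which joins a Western diet, sugar water and a weekly low dose of the liver toxin carbon tetrachloride (CCl4), or regular chow, from 8 weeks of age. The 4 droplet libraries (10x Genomics, 5′ chemistry) were MASH at 12 weeks, chow at 12 weeks, MASH at 24 weeks and chow at 24 weeks, 1 library per group. All livers were stored on ice overnight before collagenase and DNase digestion, and cells came from a Percoll gradient that removes most hepatocytes, followed by red cell lysis. The labels do not say how many mice entered each library, and MASH differs from chow by the diet, the sugar water and the toxin together.

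Interleukin 1 family ligands are alarm signals of the innate immune system. IL-1α and IL-1β act through the receptor encoded by Il1r1. Il1rn encodes an antagonist that occupies the same receptor without signalling, and Il1r2 a decoy that binds ligand but lacks a signalling domain. IL-18 acts through Il18r1 on NK and T cells, IL-33 acts through ST2 (Il1rl1) on regulatory T cells, group 2 innate lymphoid cells, basophils and mast cells, and IL-36γ (Il1f9) uses a receptor outside this set. IL-1β and IL-18 are made as precursors that are cleaved before release, so RNA levels do not show how much cytokine is active.

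The genes sit in a few clusters of the mouse genome (GENCODE M21, GRCm38). The 4 receptor genes lie in 1 stretch of chromosome 1, on the plus strand, from Il1r2 (chr1:40074079-40125231) through Il1r1 (chr1:40225080-40317257) and Il1rl1 (chr1:40429570-40465415) to Il18r1 (chr1:40465552-40500854). On chromosome 2, Il1a (chr2:129299610-129309972) and Il1b (chr2:129364570-129371139) are on the minus strand, whereas Il1f9 (chr2:24186476-24193568) and Il1rn (chr2:24336853-24351494) are on the plus strand. Il18 (chr9:50554827-50581840) and Il33 (chr19:29925114-29960718) are alone.

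Promoter sequence is shown for Il1b and Il1f9, the ligands most concentrated in neutrophils below, and for the pair of start sites of Il1rl1, a receptor gene higher in T cells of MASH at both weeks. The sequences are the 250 bases before each start site in RefSeq (GRCm38.p6), 5′ to 3′ on the gene's strand. Capitals mark the letters TATAAA, a core promoter element, or the letters AGATAA, which transcription factors of the Gata family bind, with the reverse complement for a match on the other strand.
Il1b, chr2:129371140-129371389, minus strand: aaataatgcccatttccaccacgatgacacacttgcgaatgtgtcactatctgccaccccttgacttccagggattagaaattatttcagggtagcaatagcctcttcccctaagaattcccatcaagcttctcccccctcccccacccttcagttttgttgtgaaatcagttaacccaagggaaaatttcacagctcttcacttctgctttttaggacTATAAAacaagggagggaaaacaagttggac
Il1f9, chr2:24186226-24186475, plus strand: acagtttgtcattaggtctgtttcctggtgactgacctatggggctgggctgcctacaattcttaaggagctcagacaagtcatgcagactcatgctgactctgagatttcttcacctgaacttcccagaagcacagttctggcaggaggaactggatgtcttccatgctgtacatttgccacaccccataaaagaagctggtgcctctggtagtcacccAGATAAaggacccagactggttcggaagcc
Il1rl1 upstream start site, chr1:40429320-40429569, plus strand: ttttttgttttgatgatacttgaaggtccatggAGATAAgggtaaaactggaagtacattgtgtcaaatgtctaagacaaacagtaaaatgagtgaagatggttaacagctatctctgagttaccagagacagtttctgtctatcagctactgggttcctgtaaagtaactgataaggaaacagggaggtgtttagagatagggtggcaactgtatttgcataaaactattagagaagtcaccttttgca
Il1rl1 downstream start site, chr1:40439379-40439628, plus strand: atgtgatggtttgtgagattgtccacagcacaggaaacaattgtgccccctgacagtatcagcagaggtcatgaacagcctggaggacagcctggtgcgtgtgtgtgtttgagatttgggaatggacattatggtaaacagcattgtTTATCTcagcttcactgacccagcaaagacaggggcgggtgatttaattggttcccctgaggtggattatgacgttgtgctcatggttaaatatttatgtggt

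The TATAAA of Il1b starts at position -31 from the start site, and the AGATAA of Il1f9 at position -30. In Il1rl1, AGATAA starts at position -217 at the upstream site and, on the other strand, at position -103 at the downstream site. Searched on both strands over windows of 300 bases (250 before and 50 after the start site), AGATAA occurred in 11.2% of 32851 RefSeq mouse promoters and TATAAA in 13.6%. All 10 genes had a window, 17 windows in all, and among them AGATAA was found in those of Il1f9 and Il1rl1 alone. A match describes the letters and is not shown to be a binding site.

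The kept cells numbered 15148 in MASH and 16244 in chow at 12 weeks, and 17832 in MASH and 20783 in chow at 24 weeks, with median depths of 3065, 1977.5, 3206 and 2044 unique molecular identifiers (UMIs, 1 per captured molecule) in that order. Cells were grouped by marker genes into 17 classes, each written as "-like", with the 10 genes themselves kept out of the clustering. A level is the sum of a gene's UMIs in a class per 1000000 UMIs of that class (CPM). Intervals are exact 95% intervals, Poisson for levels and binomial for shares and ratios, and cover counting error only. With 1 library per group there was no test, so a difference larger than its interval separates these libraries and has no replicate check. A ratio of MASH over chow was called where it was at least 2-fold and its interval left out 1, given at least 10 UMIs in 1 of the libraries and 20 cells in each. The macrophage-like, mature dendritic-like and stellate-like classes of 24-week chow, with 13, 9 and 8 cells, were too small to compare. Pairs of libraries shared 507 to 796 cell barcodes, against 501 to 783 expected from the size of the barcode list.

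At 12 weeks, 68 of 170 gene and class pairs could be compared, of which 11 were called higher in MASH, 3 lower, and 54 neither. The same rule called 2.83% of all gene and class pairs higher and 3.24% lower. At 24 weeks, 67 of 140 pairs could be compared, with 15 called higher in MASH, 2 lower and 50 neither, against 5.34% and 2.90% of all pairs. Calls were spread unevenly over the genes. Il1rl1 and Il1b in T-cell-like cells, Il1r2 in T-cell-like cells and Il1b in erythroid-like cells were called higher at both weeks as reported. Beyond Il1rl1 these calls rest on few UMIs or cells. Several alternatives end those in T-cell-like cells, of which some are given with each. The erythroid-like call was lost in no alternative at 12 weeks. At 24 weeks it was lost only where a library had under 20 cells left to compare. Il1b in basophil- or mast-like cells was called lower at 12 and higher at 24 weeks, and the other calls were made at 1 week.

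**Figure D1:**
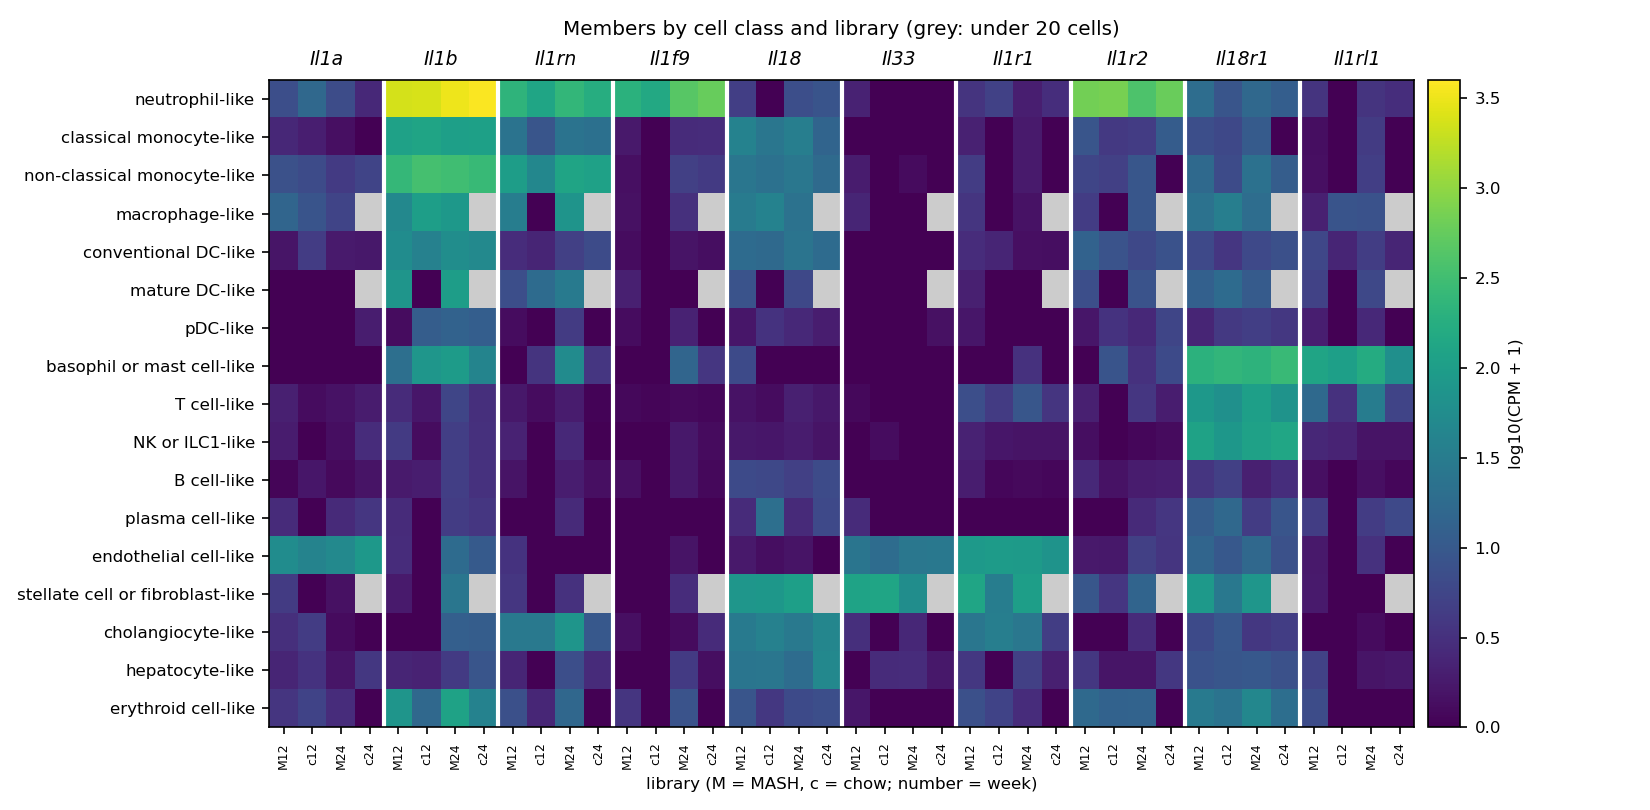
Level of each gene in 17 cell classes, as log10(CPM + 1), in MASH (M) and chow (c) libraries at 12 and 24 weeks; grey marks classes with under 20 cells. Il1b reached 3766 CPM in neutrophil-like cells, Il1rl1 stood out in basophil- or mast-like and T-cell-like cells, and Il33 in stellate-like and endothelial-like cells.

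Il1b, the main secreted pyrogenic ligand, was above all a neutrophil transcript. Neutrophil-like cells held 2322 CPM in MASH and 2382 CPM in chow at 12 weeks, and 3186 CPM in MASH and 3766 CPM in chow at 24 weeks. The MASH over chow ratios were 0.975 (0.889 to 1.07) and 0.846 (0.824 to 0.869), so neither week showed more Il1b per neutrophil-like UMI in MASH. At 12 weeks the ratio was 1.08 when libraries were scaled by the median of ratios over genes, and at 24 weeks 0.765. Il1b was seen in 78.5% of these cells in MASH and 74.5% in chow at 12 weeks, and in 82.7% in MASH and 89.7% in chow at 24 weeks. After thinning each cell to 500 UMIs, the shares came to 69.3% in MASH and 64.1% in chow, then 70.5% in MASH and 76.8% in chow. B-cell-like cells, which should lack Il1b, had it in 0.218% of MASH and 0.175% of chow cells at 12 weeks, and in 0.918% of MASH and 0.462% of chow cells at 24 weeks. Median depth was 1608.5 and 1059 UMIs in neutrophil-like cells of MASH and chow at 12 weeks and 1761 and 1382 at 24 weeks, against 2461.5, 1641, 2495 and 1799 UMIs in B-cell-like cells of the same libraries.

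The share of Il1b UMIs that came from neutrophil-like cells was 53.4% in MASH and 55.3% in chow at 12 weeks, and 72.4% in MASH and 93.2% in chow at 24 weeks. These cells made up 1.78% of MASH and 0.942% of chow cells at 12 weeks, and 8.22% of MASH and 6.93% of chow cells at 24 weeks. Part of the rest of Il1b came from monocyte-like cells. Non-classical monocyte-like cells, the patrolling kind, gave 16.8% of Il1b UMIs in MASH and 16.4% in chow at 12 weeks, and 12.7% in MASH and 1.74% in chow at 24 weeks.

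The neutrophil-like class held 2 clusters. Cluster 8 was led by Csf3r, Retnlg and Cxcr2, genes of mature neutrophils, and cluster 34 by Camp, Ngp and Ltf, granule genes of immature ones. In cluster 8, Il1b was at 5216 CPM in MASH and 4304 CPM in chow at 12 weeks (ratio 1.21, 1.10 to 1.33), and at 5296 CPM in MASH and 4360 CPM in chow at 24 weeks (1.22, 1.18 to 1.25). In cluster 34 it was at 62.0 CPM in MASH and 103 CPM in chow at 12 weeks, and at 193 CPM in MASH and 214 CPM in chow at 24 weeks. Cluster 34 held 54 of 270 cells of the class in MASH and 20.9% in chow at 12 weeks, and 16.3% in MASH and 4.30% in chow at 24 weeks. At 24 weeks the direction of the Il1b difference thus differed between the whole class and its mature cluster, and the makeup moved with it. At 12 weeks the whole-class interval included 1. By hashtag, a split chosen after seeing the data, the 24-week direction also varied. In the whole class, hashtags 5 to 8 had 4350 CPM in MASH and 3962 CPM in chow. Hashtags 1 to 4 had 3541 CPM in MASH and 4454 CPM in chow. In cluster 8 these were 6360 and 4464 CPM, then 5714 and 5361 CPM. The summed level of 14 handling-stress genes in the class was 11970 CPM in MASH and 11190 CPM in chow at 12 weeks, and 24470 CPM in MASH and 37930 CPM in chow at 24 weeks; its part in these levels was not tested.

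In the other myeloid classes Il1b was lower than in neutrophil-like cells. Non-classical monocyte-like cells had 250 CPM in MASH and 343 CPM in chow at 12 weeks (0.729, 0.616 to 0.867), and 313 CPM in MASH and 268 CPM in chow at 24 weeks (1.17, 1.00 to 1.37). Classical monocyte-like cells had 114 CPM in MASH and 126 CPM in chow, then 106 CPM in MASH and 112 CPM in chow. In conventional dendritic-like cells the levels were 55.6 CPM in MASH and 36.9 CPM in chow (1.505, 1.11 to 2.07), then 57.8 CPM in MASH and 49.1 CPM in chow (1.18, 0.971 to 1.44). Macrophage-like cells of MASH were lower at 12 weeks, with 46.6 CPM against 102.5 CPM in chow (0.455, 0.304 to 0.706; 211 and 27 UMIs), called lower with 4.99% of genes in that class. That call was lost in 5 of the alternatives, with ratios of 0.524 to 0.583, and the median gene of this class had a log2 ratio of -0.23. Within cluster 22, led by C1qa, Gpnmb and Trem2, the levels were 56.0 CPM in MASH and 102.5 CPM in chow.

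Mature dendritic-like cells had 71 Il1b UMIs in 161 MASH cells and 0 in 23 chow cells at 12 weeks, at least 2.94-fold higher with chow set to the floor of 3 UMIs, where 1.70% of genes were called higher; with 1 hashtag too few cells were left to compare. Several further Il1b calls rested on few cells. In basophil- or mast-like cells MASH had 19.8 CPM and chow 75.7 CPM at 12 weeks (0.261, 0.118 to 0.536), called lower with 4.05% of genes, where all 30 chow UMIs came from 3 of 115 cells. At 24 weeks the same class had 94.5 CPM in MASH and 41.1 CPM in chow (2.30, 1.25 to 4.47), called higher with 4.24% of genes, with 41 MASH UMIs in 4 of 92 cells and 15 chow UMIs in 2 of 101 cells. This 24-week call was lost without doublet removal (1.34) and against chow hashtags 5 to 8 (1.06), and the ratio fell below 1 among cells with 1 hashtag (0.346 with MASH, at 0 UMIs, set to the floor). The 12-week call was lost among cells with 1 hashtag (0.326). Plasmacytoid dendritic-like cells at 12 weeks had 1 UMI in MASH and 18 in chow, called lower with 1.87% of genes, the chow UMIs in 4 cells; without doublet removal the ratio was 0.263 and not called. Levels of a few CPM were seen in lymphocytes. T-cell-like cells had 1.80 CPM in MASH and 0.636 CPM in chow at 12 weeks (2.83, 1.08 to 8.72), and 4.64 CPM in MASH and 2.08 CPM in chow at 24 weeks (2.24, 1.41 to 3.63); 3.90% and 6.03% of genes were called higher there. Among cells with 1 hashtag neither call was made (2.68 and 1.23), the 12-week call was also lost without doublet removal (2.26), and the single hashtags of MASH and chow overlapped at both weeks. NK- or ILC1-like cells had 18 UMIs in MASH and 1 in chow at 12 weeks (9.72, 1.54 to 405), called higher with 1.86% of genes but not among cells with 1 hashtag (5.83). Erythroid-like cells had 74.3 CPM in MASH and 15.5 CPM in chow at 12 weeks (4.80), then 118 CPM in MASH and 37.9 CPM in chow (3.11), called higher with 2.62% and 2.99% of genes; with 1 hashtag too few 24-week cells were left to compare. In the 12-week MASH library, the 362845 barcodes with 1 to 100 UMIs, which are mostly not cells, held Il1b at 57.4 CPM, above each of these lymphocyte levels; the part of such free RNA in them was not tested.

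**Figure D2:**
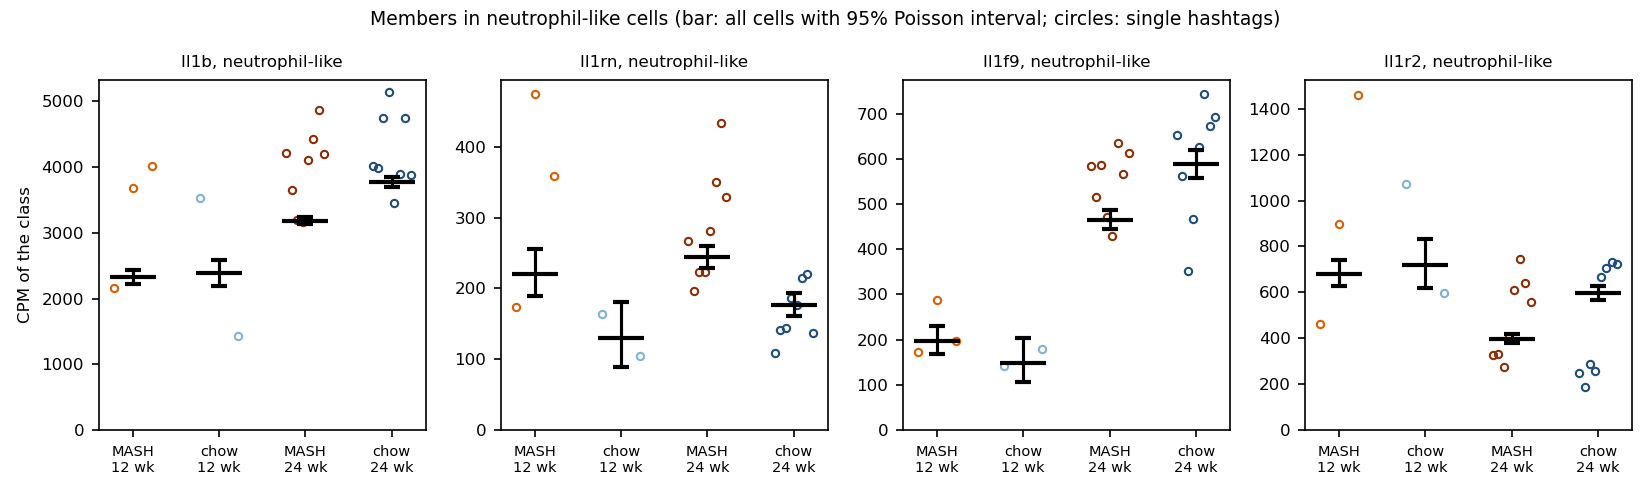
Levels of Il1b, Il1rn, Il1f9 and Il1r2 in neutrophil-like cells (CPM of the class) for MASH and chow at 12 and 24 weeks; bars give all cells with 95% Poisson intervals and circles the cells of single hashtags, which are not replicates. Il1rn was higher in MASH at both weeks, and the 24-week Il1r2 circles formed an upper and a lower group within both diets.

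Il1rn, which encodes the receptor antagonist, was higher in MASH in the whole suspension and in several myeloid classes. Neutrophil-like cells had 220 CPM in MASH and 129 CPM in chow at 12 weeks (1.70, 1.17 to 2.55), and 244 CPM in MASH and 177 CPM in chow at 24 weeks (1.38, 1.23 to 1.55). Neither ratio reached 2-fold. In the mature cluster 8 the levels were 445 CPM in MASH and 202 CPM in chow (2.20, 1.47 to 3.42), then 372 CPM in MASH and 196 CPM in chow (1.90, 1.69 to 2.14). In the immature cluster 34 they were 44.3 CPM in MASH and 42.8 CPM in chow, then 62.1 CPM in MASH and 61.0 CPM in chow. Il1rn thus differed between diets in the mature cluster by more than Il1b did. Il1rn was detected in 32.2% of neutrophil-like cells in MASH and 17.6% in chow at 12 weeks, and in 32.6% in MASH and 23.7% in chow at 24 weeks; thinned to 500 UMIs, the shares were 10.0% in MASH and 6.54% in chow, then 13.2% in MASH and 8.47% in chow. In B-cell-like cells it was in at most 0.262% of cells of any library.

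Monocyte-like and macrophage-like cells were the other main Il1rn sources. Non-classical monocyte-like cells had 99.4 CPM in MASH and 45.7 CPM in chow at 12 weeks (2.17, 1.43 to 3.46), and 124 CPM in MASH and 112 CPM in chow at 24 weeks (1.10, 0.871 to 1.42). The rule called 3.20% of genes higher in this class at 12 weeks, and the call was lost without doublet removal (1.71) and with stricter cells (1.496). Classical monocyte-like cells had 22.5 CPM in MASH and 7.99 CPM in chow at 12 weeks (2.82, 1.34 to 6.83), against 2.22% of genes called higher, and 22.3 CPM in MASH and 20.03 CPM in chow at 24 weeks (1.11, 0.701 to 1.85). The 24-week intervals of both monocyte classes included 1, and the change of the ratio was not tested. Macrophage-like cells held 146 Il1rn UMIs in 570 MASH cells and 0 in 81 chow cells at 12 weeks, at least 2.83-fold higher, called with 2.64% of genes but not among cells with 1 hashtag. Their level in MASH was 72.2 CPM at 24 weeks against 32.2 CPM at 12 weeks (2.24, 1.87 to 2.71).

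Cholangiocyte-like cells, which line bile ducts, had 27.3 CPM of Il1rn in both diets at 12 weeks, and 73.2 CPM in MASH and 8.74 CPM in chow at 24 weeks (8.38, 4.52 to 17.6; 540 and 10 UMIs). The 24-week cells of this class came from different clusters. All MASH cells were in cluster 27, led by Spp1, Clu, Epcam and Sox9, and 44 of 45 chow cells in cluster 43, led by Dmbt1, Spink4 and Tff3, so the diets were not compared on like cells; 18.3% of genes were called higher there. Smaller calls were in hepatocyte-like cells, with 10 and 5 UMIs in MASH and chow at 24 weeks (3.61, 1.12 to 13.4), where 8.37% of genes were called higher, and in T-cell-like cells, with 11 and 1 (12.5, 1.82 to 539). The hepatocyte-like ratio turned to 0.908 among cells with 1 hashtag and to 0.693 with hashtags 1 to 4 in both diets, and the T-cell-like call was lost in both of these settings. The call in basophil- or mast-like cells at 24 weeks (53.0 CPM in MASH and 2.74 CPM in chow) rested on 1 MASH cell, which carried all 23 UMIs.

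Il1f9, encoding IL-36γ, came almost wholly from neutrophil-like cells, which gave 82.8% of its UMIs in MASH and 97.4% in chow at 12 weeks, and 92.8% in MASH and 98.5% in chow at 24 weeks. The levels were 198 CPM in MASH and 149 CPM in chow at 12 weeks (1.33, 0.928 to 1.95), and 465 CPM in MASH and 588 CPM in chow at 24 weeks (0.791, 0.738 to 0.848). Between weeks the difference was wider than between diets, with 2.35 times as much at 24 as at 12 weeks in MASH (2.0 to 2.78) and 3.95 times in chow (2.87 to 5.61). In the mature cluster the levels were 338 CPM in MASH and 202 CPM in chow (1.67), then 592 CPM in MASH and 639 CPM in chow (0.925). The immature cluster also held Il1f9, at 88.6 CPM in MASH and 85.6 CPM in chow, then 286 CPM in MASH and 283 CPM in chow.

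Il1a, the ligand kept inside cells until they are damaged, was highest in endothelial-like cells among the named classes. Endothelial-like cells had 55.0 CPM in MASH and 39.1 CPM in chow at 12 weeks (1.41, 1.11 to 1.79), and 49.3 CPM in MASH and 82.0 CPM in chow at 24 weeks (0.601, 0.445 to 0.811). The ratio stood above 1 at 12 weeks and below 1 at 24 weeks, with hashtag ranges that overlapped between diets at both. Il1a was seen in 16.1% of these cells in MASH and 8.06% in chow, then 17.0% in MASH and 15.3% in chow; thinned to 500 UMIs, the shares were 2.83% in MASH and 1.68% in chow, then 2.58% in MASH and 3.88% in chow. In B-cell-like cells it was in at most 0.116% of cells. Within the class, cluster 13, with sinusoidal genes, had 71.2 CPM in MASH and 47.3 CPM in chow (1.51), then 83.2 CPM in MASH and 139 CPM in chow (0.598). The endothelial-like class gave 42.7% and 38.8% of Il1a UMIs in MASH and chow at 12 weeks and 34.9% and 31.1% at 24 weeks. Macrophage-like cells of MASH gave 12.9% at 12 weeks (63 UMIs, 13.9 CPM) and 14.1% at 24 weeks (36 UMIs, 4.41 CPM), and in 24-week MASH non-classical monocyte-like cells gave 8.63% and neutrophil-like cells 9.02%. Cluster 6, which carried endothelial and T cell markers together and was left out as mixed, held a further 27.6% in MASH and 44.1% in chow, then 21.2% in MASH and 47.1% in chow. In neutrophil-like cells at 24 weeks Il1a had 23 UMIs in MASH and 4 in chow (3.64, 1.24 to 14.5), where 9.41% of genes were called higher and the median gene had a log2 ratio of 0.23. That call was lost among cells with 1 hashtag (2.73) and against chow hashtags 5 to 8 (2.30).

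**Figure D3:**
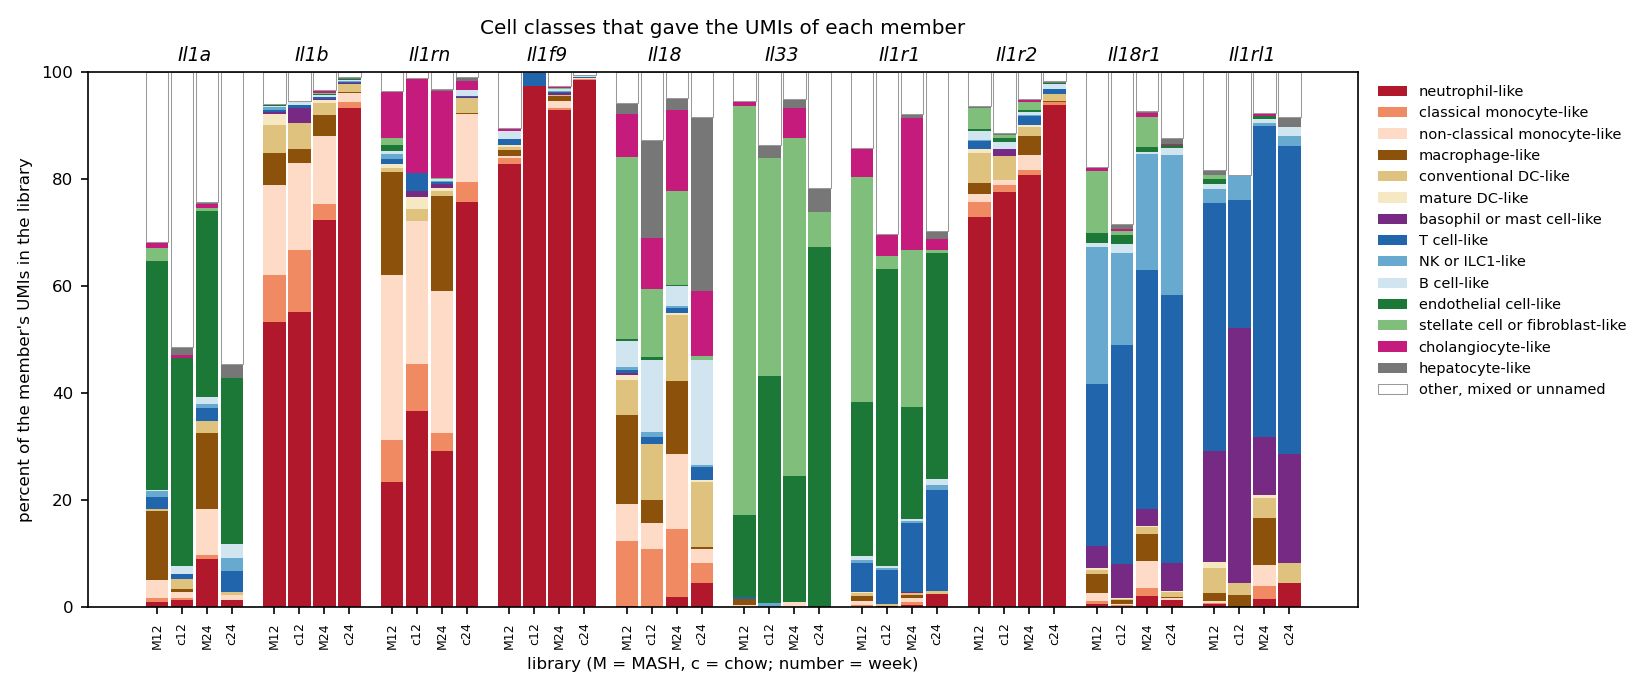
Percent of each gene's UMIs that came from each cell class in the MASH (M) and chow (c) libraries at 12 and 24 weeks; white is other, mixed or unnamed cells. Neutrophil-like cells gave 53.4% to 93.2% of Il1b and 73.0% to 93.8% of Il1r2, and T-cell-like cells 23.9% to 58.2% of Il1rl1.

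Il18, whose product drives interferon-γ from NK and T cells, had no single source. Stellate-like cells, which may include fibroblasts, had 77.5 CPM in MASH and 78.3 CPM in chow at 12 weeks (0.990, 0.674 to 1.504), and 107 CPM in MASH at 24 weeks. Classical monocyte-like cells had 37.9 CPM in MASH and 25.0 CPM in chow at 12 weeks (1.52, 0.973 to 2.46), and 34.0 CPM in MASH and 13.7 CPM in chow at 24 weeks (2.49, 1.47 to 4.54), the second called higher with 2.24% of genes in that class, but not against chow hashtags 5 to 8 (1.95) or at clustering resolution 1 (1.93). Hepatocyte-like cells, a remnant of the gradient, had 23.7 CPM in MASH and 24.9 CPM in chow at 12 weeks, and 17.5 CPM in MASH and 46.4 CPM in chow at 24 weeks (0.377, 0.241 to 0.569), called lower with 2.52% of genes, though not without doublet removal (0.578) or against chow hashtags 5 to 8 (0.560). B-cell-like cells held Il18 at 3.85 to 5.65 CPM in all libraries. The stellate-like class gave 34.1% of Il18 UMIs in MASH and 12.7% in chow at 12 weeks; at 24 weeks hepatocyte-like cells gave 2.12% in MASH and 32.4% in chow.

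Il33, an alarmin of stromal and endothelial nuclei, was found in stellate-like and endothelial-like cells. Stellate-like cells had 122 CPM in MASH and 130 CPM in chow at 12 weeks (0.941, 0.698 to 1.29; 450 and 48 UMIs), and 56.6 CPM in MASH at 24 weeks. In MASH the 24-week level was thus 0.464 times the 12-week level (0.377 to 0.568). The gene was seen in 45.8% of stellate-like cells in MASH and 29.4% in chow at 12 weeks, and in 0 of the B-cell-like cells of any library, which allows shares of cells with a UMI of up to 0.0433% to 0.109% (3 cells of each total) and sets no limit on cells that express it; thinned to 500 UMIs, the shares were 5.76% in MASH and 4.71% in chow. Median depth of the stellate-like cells was 9076 UMIs in MASH and 4022 in chow. Endothelial-like cells had 24.0 CPM in MASH and 17.6 CPM in chow at 12 weeks (1.36, 0.954 to 1.96), and 25.5 CPM in MASH and 26.8 CPM in chow at 24 weeks (0.951, 0.590 to 1.55). Cluster 29, the vascular cells with Vwf, held 46.6 CPM in MASH and 51.4 CPM in chow, then 50.6 CPM in MASH and 47.0 CPM in chow. In sinusoidal cluster 13 at 12 weeks the levels were 14.8 CPM in MASH and 4.53 CPM in chow (3.27, from 38 and 9 UMIs).

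Among the receptors, Il1r1, the signalling receptor of IL-1, lay in endothelial-like and stellate-like cells. Stellate-like cells had 130 CPM in MASH and 32.4 CPM in chow at 12 weeks (4.005, 2.27 to 7.81; 479 and 12 UMIs), and 104 CPM in MASH at 24 weeks. It was called higher with 3.73% of genes in this class, and the ratio was 3.55 to 5.49 in every alternative run. Il1r1 was detected in 40.3% of these cells in MASH and 12.9% in chow; thinned to 500 UMIs, in 6.44% in MASH and 1.18% in chow, and in 0.255% of B-cell-like cells in MASH and 0.0291% in chow. Endothelial-like cells differed by less than the counting error, with 86.4 CPM in MASH and 94.4 CPM in chow (0.915, 0.776 to 1.08), then 89.1 CPM in MASH and 69.9 CPM in chow (1.27, 0.970 to 1.69). Within them the Vwf cluster 29 was highest, at 161 CPM in MASH and 240 CPM in chow, then 148 CPM in MASH and 125 CPM in chow. Cholangiocyte-like cells at 24 weeks had 25.8 CPM in MASH and 3.496 CPM in chow (7.37), with the same split of clusters as for Il1rn.

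T-cell-like cells held a small amount of Il1r1, 6.31 CPM in MASH and 3.29 CPM in chow at 12 weeks (1.92, 1.23 to 3.05). At 24 weeks they had 8.15 CPM in MASH and 2.58 CPM in chow (3.16, 2.14 to 4.76), called higher with 6.03% of genes. Cluster 17, led by Foxp3, Ctla4 and Ikzf2 and called regulatory T-cell-like, gave 68.3% of these UMIs in MASH and 67.7% in chow at 12 weeks, and 71.0% in MASH and 47.2% in chow at 24 weeks. Inside that cluster the difference was within the counting error, at 37.9 CPM in MASH and 41.0 CPM in chow (0.924, 0.536 to 1.64), then 28.1 CPM in MASH and 31.0 CPM in chow (0.906, 0.528 to 1.64). The cluster itself was 11.2% of T-cell-like cells in MASH and 4.93% in chow at 12 weeks, and 21.7% in MASH and 4.18% in chow at 24 weeks. Outside the cluster, innate-like T cells had 10 Il1r1 UMIs in 1039 MASH cells and 8 in 2132 chow cells at 12 weeks. At 24 weeks they had 24 UMIs in 1163 MASH cells and 17 in 3059 chow cells, counts not scaled for depth. The T-cell-like cells with an Il1r1 UMI, 46 in MASH and 27 in chow at 12 weeks and 78 in MASH and 27 in chow at 24 weeks, often carried genes of interleukin 17-producing γδ T cells. Trdc, the constant gene of the δ chain, was in 41.3% of them in MASH and 29.6% in chow, then 34.6% in MASH and 29.6% in chow, compared with 3.42% to 5.20% of T-cell-like cells without Il1r1. Il17a was in 28.3% in MASH and 18.5% in chow, then 21.8% in MASH and 14.8% in chow, compared with 0.186% to 0.870% of those without Il1r1.

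Il1r2, the decoy receptor, shared its main source with Il1b. Neutrophil-like cells had 682 CPM in MASH and 721 CPM in chow at 12 weeks (0.946, 0.799 to 1.12), and 397 CPM in MASH and 595 CPM in chow at 24 weeks (0.667, 0.621 to 0.716). In the mature cluster 8 the levels were 1407 CPM in MASH and 1242 CPM in chow (1.13), then 609 CPM in MASH and 678 CPM in chow (0.898, 0.834 to 0.967). Within each hashtag set described below, the 24-week level of cluster 8 was instead higher in MASH. The share of neutrophil-like cells with Il1r2 was 69.6% in MASH and 60.8% in chow at 12 weeks, and 50.6% in MASH and 55.2% in chow at 24 weeks; thinned to 500 UMIs, 40.7% in MASH and 37.3% in chow, then 20.9% in MASH and 29.3% in chow. Cells with Il1b had Il1r2 in 72.6% of cases in MASH and 67.5% in chow at 12 weeks, and in 53.7% in MASH and 56.1% in chow at 24 weeks, compared with 58.6%, 41.0%, 35.6% and 46.6% of the neutrophil-like cells without Il1b in the same libraries. Cells with Il1b were the shallower ones, with median depths of 1450.5, 961.5, 1652 and 1371 UMIs in MASH and chow at 12 weeks and MASH and chow at 24 weeks, against 4614.5, 2019, 4137 and 1541.5 UMIs in cells without it. The shares were not matched for depth or for cluster. B-cell-like cells had Il1r2 in at most 0.400% of cells of any library.

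The 24-week Il1r2 level differed between sets of the hashtag antibodies, whose meaning the labels do not give. Cells of hashtags 5 to 8 had 638 CPM and those of hashtags 1 to 4 had 340 CPM in MASH (1.88, 1.67 to 2.11). This was under 2-fold and not called, where the rule calls 1.77% of genes higher. In chow the values were 705 CPM for hashtags 5 to 8 and 250 CPM for hashtags 1 to 4 (2.82, 2.14 to 3.79). This was called higher, where the rule calls 1.04%. The 4 hashtags of each set did not overlap with the other set in either diet: from 558 to 747 CPM against 276 to 405 CPM in MASH, and from 665 to 733 CPM against 188 to 288 CPM in chow. Of the hashtag-assigned neutrophil-like cells, 524 in MASH and 964 in chow carried hashtags 5 to 8, and 597 in MASH and 142 in chow carried hashtags 1 to 4. The split was chosen after seeing the data, and the share of all genes with sets that do not overlap was not taken. Within hashtags 5 to 8, Il1r2 was at 638 CPM in MASH and 705 CPM in chow, and within hashtags 1 to 4 at 340 CPM in MASH and 250 CPM in chow. In the mature cluster 8, hashtags 5 to 8 had 889 CPM in MASH (464 cells) and 782 CPM in chow (926 cells). Its hashtags 1 to 4 had 515 CPM in MASH (505 cells) and 291 CPM in chow (135 cells).

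Outside neutrophils Il1r2 was scarce. Classical monocyte-like cells at 24 weeks had 3.42 CPM in MASH and 10.0 CPM in chow (0.341, 0.151 to 0.806; 17 and 11 UMIs), called lower with 1.28% of genes, a difference that turned to the other side of 1 in 5 of the alternatives. T-cell-like cells had 11 UMIs in MASH and 0 in chow at 12 weeks, at least 3.46-fold higher, and 2.69 CPM in MASH and 0.931 CPM in chow at 24 weeks (2.89, 1.48 to 5.98). The 24-week call was lost against chow hashtags 1 to 4 (2.33), and among cells with 1 hashtag there were too few UMIs to compare at 12 weeks.

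Il18r1, the ligand-binding chain of the IL-18 receptor, was found in several lymphoid classes and in basophil- or mast-like cells. Basophil- or mast-like cells had 202 CPM in MASH and 232 CPM in chow at 12 weeks (0.867, 0.653 to 1.16), and 214 CPM in MASH and 274 CPM in chow at 24 weeks (0.781, 0.583 to 1.05). T-cell-like cells had 80.9 CPM in MASH and 63.2 CPM in chow (1.28, 1.15 to 1.42), then 108 CPM in MASH and 68.9 CPM in chow (1.57, 1.45 to 1.71). In innate-like T cells, marked by Zbtb16 and Cxcr6, the 24-week levels were 118 CPM in MASH and 65.0 CPM in chow (1.81, 1.60 to 2.05). Regulatory T-cell-like cells had 152.5 CPM in MASH and 137 CPM in chow at 12 weeks (1.12, 0.840 to 1.49), and 171 CPM in MASH and 217 CPM in chow at 24 weeks (0.786, 0.640 to 0.971), on the other side of 1 from the whole class. NK- or ILC1-like cells had 117 CPM in MASH and 79.2 CPM in chow at 12 weeks (1.48, 1.28 to 1.72), and 112 CPM in MASH and 134 CPM in chow at 24 weeks (0.836, 0.743 to 0.942). The ratio lay on opposite sides of 1 at the 2 weeks, but the makeup of the class moved with it. At 12 weeks it held 745 NK-like and 794 ILC1-like cells in MASH and 709 and 541 in chow, and at 24 weeks 239 NK-like and 1114 ILC1-like cells in MASH and 735 and 652 in chow. Split further, NK-like cells had 152 CPM in MASH and 110 CPM in chow, then 163 CPM in MASH and 216 CPM in chow (0.757, 0.620 to 0.922), and ILC1-like cells, the liver-resident kind, 93.7 CPM in MASH and 49.0 CPM in chow (1.91), then 103 CPM in MASH and 71.7 CPM in chow (1.44, 1.20 to 1.74). At 24 weeks the ratio was thus below 1 in NK-like and above 1 in ILC1-like cells. B-cell-like cells held 1.10 to 3.87 CPM.

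A pair of Il18r1 calls lay outside lymphocytes. Stellate-like cells had 83.7 CPM in MASH and 27.0 CPM in chow at 12 weeks (3.10, 1.66 to 6.53), where the 10 chow UMIs came from 4 of 85 cells; among cells with 1 hashtag the ratio was 2.09 and no longer called. Classical monocyte-like cells at 24 weeks had 48 UMIs in MASH and 0 in chow, at least 3.53-fold higher, a call lost among cells with 1 hashtag and against either chow hashtag set. The low-UMI barcodes of the 12-week MASH library held Il18r1 at 64.9 CPM; their part was not tested.

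Il1rl1, the IL-33 receptor ST2, had the largest 24-week ratio among the gene and class pairs called at both weeks. T-cell-like cells had 15.7 CPM in MASH and 2.23 CPM in chow at 12 weeks (7.06, 4.46 to 11.7; 157 and 21 UMIs in 69 and 14 cells). At 24 weeks they had 31.3 CPM in MASH and 4.44 CPM in chow (7.05, 5.38 to 9.37; 384 and 62 UMIs in 191 and 40 cells). These calls stand beside the 3.90% and 6.03% of genes called higher in the class. Il1rl1 was in 2.26% of cells in MASH and 0.373% in chow, then 5.41% in MASH and 0.824% in chow; thinned to 500 UMIs, 0.623% in MASH and 0.0533% in chow, then 1.53% in MASH and 0.144% in chow. In B-cell-like cells it was in at most 0.0875% of cells, and it had no UMI in the low-UMI barcodes of the 12-week MASH library. Single hashtags, 3 in each diet, ranged from 8.72 to 19.2 CPM in MASH and 2.005 to 2.64 CPM in chow at 12 weeks. At 24 weeks, with 8 in each diet, they ranged from 16.5 to 37.1 CPM in MASH and 0 to 14.8 CPM in chow. The ranges did not overlap at either week, but hashtags are not replicates. The share of all genes with such ranges was not taken. Hashtags 5 to 8 of 24-week chow held 1.77 CPM and hashtags 1 to 4 held 6.75 CPM (0.263, 0.116 to 0.543), called lower with 2.59% of genes, and against these parts the ratio was 17.6 and 4.64.

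Both a larger regulatory cluster and a higher level inside and outside it went with this difference. Cluster 17 gave 59.2% of the Il1rl1 UMIs of T-cell-like cells in MASH and 52.4% in chow at 12 weeks, and 69.8% in MASH and 53.2% in chow at 24 weeks. Inside it, Il1rl1 was at 82.0 CPM in MASH and 21.5 CPM in chow at 12 weeks (3.81, 2.04 to 7.91), and at 106 CPM in MASH and 60.2 CPM in chow at 24 weeks (1.76, 1.23 to 2.61). The first was called, with 1.82% of genes, and the second was not. T-cell-like cells outside the cluster had 7.24 CPM in MASH and 1.12 CPM in chow (6.45, 3.29 to 14.1), then 11.9 CPM in MASH and 2.16 CPM in chow (5.51, 3.64 to 8.58). Innate-like T cells had 7.86 CPM in MASH and 1.497 CPM in chow (5.25, 2.42 to 12.6), then 20.4 CPM in MASH and 1.90 CPM in chow (10.7, 6.30 to 19.3), called with 2.94% and 3.73% of genes. CD4-like cells had 33 UMIs in MASH and 0 in chow at 12 weeks, at least 12.9-fold higher, and 45.2 CPM in MASH and 9.37 CPM in chow at 24 weeks (4.83, 2.19 to 11.7), called with 2.43% and 2.21% of genes.

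**Figure D4:**
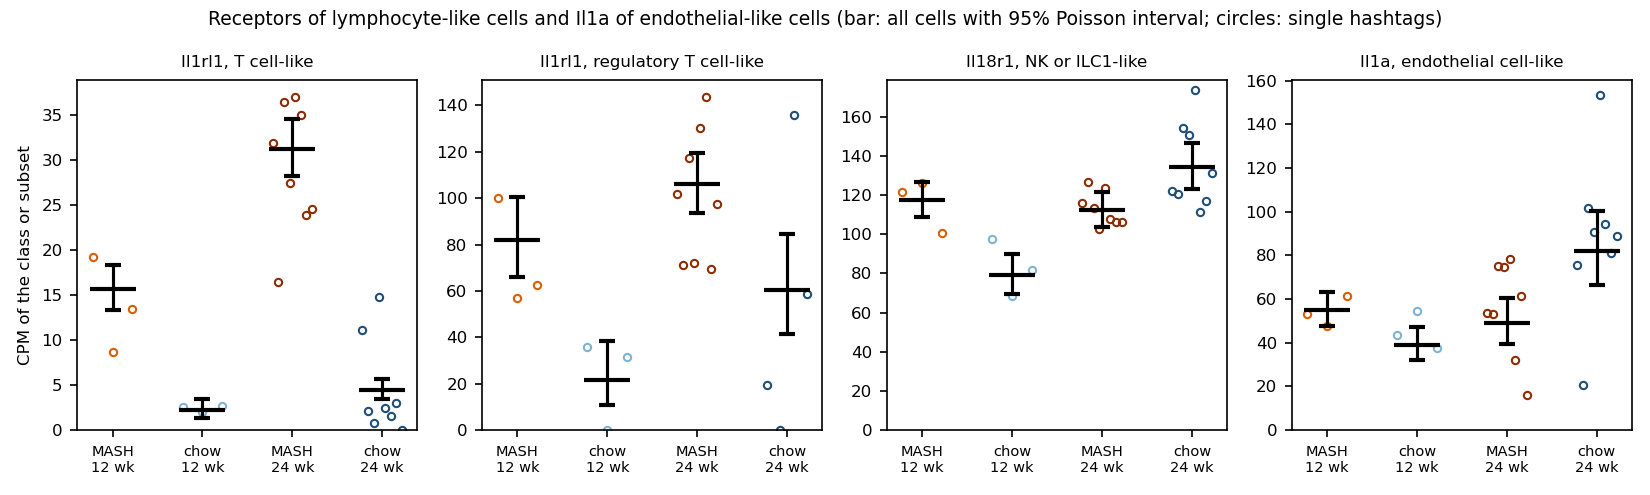
Il1rl1 in T-cell-like and regulatory T-cell-like cells, Il18r1 in NK- or ILC1-like cells and Il1a in endothelial-like cells, as CPM of the class for MASH and chow at 12 and 24 weeks; bars give all cells with 95% Poisson intervals, circles single hashtags, which are not replicates. The Il1rl1 circles of T-cell-like cells, 8.72 to 19.2 against 2.005 to 2.64 CPM and then 16.5 to 37.1 against 0 to 14.8 CPM, did not overlap between MASH and chow. The share of all genes for which this holds was not taken.

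The T-cell-like cells with an Il1rl1 UMI carried genes of regulatory T cells and of group 2 lymphocytes. Foxp3, the regulatory T cell factor, was in 24.6% of them in MASH and 35.7% in chow at 12 weeks, and in 44.5% in MASH and 42.5% in chow at 24 weeks, compared with 0.829% to 5.45% of the T-cell-like cells without Il1rl1. Gata3, a factor of type 2 lymphocytes, was in 66.7% in MASH and 28.6% in chow, then 69.6% in MASH and 65.0% in chow, compared with 20.2% to 25.6% of cells without Il1rl1; the interval of the 12-week chow share (8.39% to 58.1%) covered that range. Areg, a tissue-repair growth factor, was in 49.3% in MASH and 42.9% in chow at 12 weeks, and in 17.8% in MASH and 7.50% in chow at 24 weeks, compared with 0.353% to 1.95% of cells without Il1rl1. Cd3e, part of the T cell receptor complex, was in 49.3% of the Il1rl1 cells in MASH and 78.6% in chow at 12 weeks, compared with 73.3% and 78.1% of those without it, and in 62.3% in MASH and 65.0% in chow at 24 weeks, compared with 85.2% and 82.4%. Hlf, a group 2 innate lymphoid gene, was in 33.3% of Il1rl1 cells in MASH and 14.3% in chow, then 18.3% in MASH and 12.5% in chow, compared with 0.508% to 2.55% of cells without Il1rl1. Cells with Il1rl1 had median depths of 2967 to 3579 UMIs and those without it 2393 to 3120. Chow shares rest on 14 cells at 12 weeks and 40 at 24 weeks, and group 2 innate lymphoid cells formed no cluster of their own.

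Basophil- or mast-like cells were the other Il1rl1 source. They had 126 CPM in MASH and 106 CPM in chow at 12 weeks (1.19, 0.799 to 1.78), and 164 CPM in MASH and 60.3 CPM in chow at 24 weeks (2.71, 1.66 to 4.596; 71 and 22 UMIs). The second was called higher, with 4.24% of genes, and was not called among cells with 1 hashtag (1.70) or against chow hashtags 5 to 8 (2.09). Their share of Il1rl1 UMIs was 20.6% in MASH and 47.7% in chow at 12 weeks, and 10.8% in MASH and 20.4% in chow at 24 weeks. In macrophage-like cells of MASH the level was 7.10 CPM at 24 weeks against 1.10 CPM at 12 weeks (6.43, 2.60 to 20.6).

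**Figure D5:**
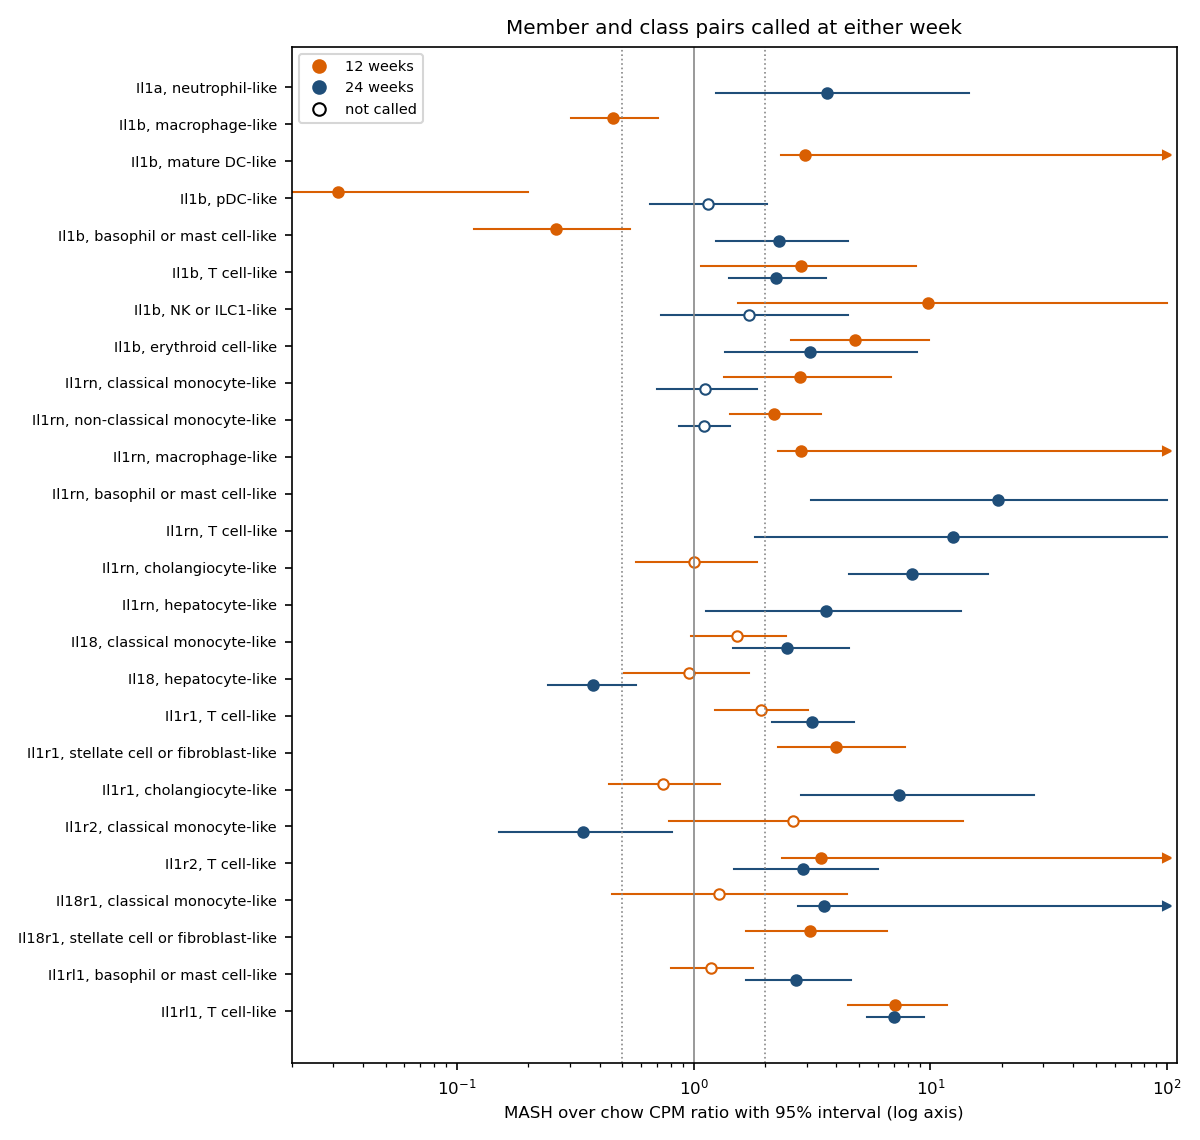
MASH over chow ratios of CPM, on a log axis with 95% intervals, for each gene and class called at 12 weeks (orange) or 24 weeks (blue); open circles were not called, arrows mark lower bounds and dotted lines 2-fold. Il1rl1 in T-cell-like cells stands at 7.06 and 7.05, whereas Il1b in basophil- or mast-like cells stands at 0.261 and 2.30.

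Over all kept cells, which mix levels with the makeup of the suspension, 7 of the 10 genes were called higher in MASH at 12 weeks, where 9.84% of all genes were, and 5 of the 10 at 24 weeks, where 14.8% were; 0 of the 10 was called lower at either week, where 3.55% and 4.17% of all genes were. Il1rn had 11.6 CPM in MASH and 2.09 CPM in chow at 12 weeks (5.54, 4.45 to 6.97), and 38.0 CPM in MASH and 10.5 CPM in chow at 24 weeks (3.62, 3.32 to 3.96). Il33 had 9.01 CPM in MASH and 2.75 CPM in chow (3.28), then 2.24 CPM in MASH and 0.823 CPM in chow (2.72), while within stellate-like cells at 12 weeks its ratio was 0.941. Il1b had 53.5 CPM in MASH and 25.6 CPM in chow (2.09, 1.95 to 2.24), then 201 CPM in MASH and 182 CPM in chow (1.10, 1.08 to 1.13). Stellate-like cells made up 1.95% of MASH and 0.523% of chow cells at 12 weeks, and 0.729% of MASH and 0.0385% of chow cells at 24 weeks, and macrophage-like cells 3.76% of MASH and 0.499% of chow, then 4.44% of MASH and 0.0626% of chow cells.

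Genes that act with the family were taken from lists of partners, maturation genes and signalling genes. Of 5 partner and inhibitor genes, 2 could be compared in neutrophil-like cells at 12 weeks and 4 at 24 weeks, and none was called. Of the 7 genes for maturation and release, 6 could be compared there at 12 weeks and 1 was called higher, Casp4, an inflammatory caspase (57.2 CPM in MASH and 23.5 CPM in chow, 2.43), and of all 7 at 24 weeks none. Of the 16 signalling genes, 1 of 15 was called lower at 12 weeks, Tollip, an adaptor that restrains the pathway (16.2 CPM in MASH and 43.1 CPM in chow, 0.375), and 0 of 16 at 24 weeks. In neutrophil-like cells the rule called 2.60% of genes higher and 2.53% lower at 12 weeks, and 9.41% higher and 2.21% lower at 24 weeks. The median log2 ratio of the signalling list was 0.07 at 12 weeks and 0.04 at 24 weeks, beside 0.02 and 0.23 over all genes compared.

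In T-cell-like cells at 12 weeks, Il1rl2, the IL-36 receptor gene, was called lower, with 2.03% of genes (0.701 CPM in MASH and 8.59 CPM in chow, 0.0816) among 5 partner genes, Casp4 higher (15.6 CPM in MASH and 7.32 CPM in chow, 2.13), with 3.90% of genes, among 7 maturation genes, and none of 16 signalling genes; at 24 weeks none of the 5, 7 and 16 was called. In stellate-like cells at 12 weeks, Il18bp, which encodes a soluble inhibitor of IL-18, was higher (29.3 CPM in MASH and 10.8 CPM in chow, 2.71), the one call among 5 partner genes, where 3.73% of all genes in the class were called higher. Of 5 maturation genes compared there, Casp1, the protease that cleaves IL-1β and IL-18, was at 23.8 CPM in MASH and 0 in chow, at least 2.94-fold higher, and Gsdme, a pore-forming protein, at 45.8 CPM in MASH and 21.6 CPM in chow (2.12). Of 16 signalling genes Nfkb1, a subunit of NF-κB, was at 70.4 CPM in MASH and 35.1 CPM in chow (2.01). The other 4 ligand genes of the family had too few UMIs to compare in any class.

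Across 62 points, each a class in a library with at least 50 cells, log2(CPM + 1) of the genes was compared with that of all other genes by Pearson's r, given as a description since points share libraries. Il1f9 was most like Stfa2l1 (r = 0.962), Cstdc4 (0.954) and Scrg1 (0.952), and Il1b most like Lst1 (0.925), Csf3r (0.906), the receptor of a neutrophil growth factor, and Hcar2 (0.895). Il33 was most like Slc10a6 (0.962), Col5a2 (0.960), a fibrillar collagen gene, and Fndc1 (0.956). Il1r1 was most like Npdc1 (0.920), Rhoj (0.918) and Spats2l (0.916), and Il1a most like Lhfpl2 (0.866), Plppr5 (0.861) and Emcn (0.854), an endothelial sialomucin. Il1rl1 was most like Ccr3 (0.804), Alox8 (0.789) and Ms4a2 (0.782), the last a chain of the IgE receptor of basophils and mast cells. Il18r1 was most like Cst7 (0.840) and Fhl2 (0.836), and Il1r2 most like Lin28a (0.853), Stfa2l1 (0.853) and Retn (0.851). Il1rn was most like Pilrb2 (0.820), Csf3r (0.814) and Clec4d (0.811), and Il18 was least matched, with Lrp1 (0.780), Stxbp6 (0.750) and C3 (0.730).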

How the data were processed

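The deposited matrices hold raw UMI counts per gene and barcode, which the authors made with Cell Ranger 5.0.1 for 3 libraries and Cell Ranger 4 for 12-week MASH, per the file headers. GRCh38 and mm10 are named in the submitters' processing notes without a role, and the step that called cells among barcodes is not described there. The 12-week MASH matrix held 737280 barcodes and its deposited barcode list did not match its columns, so its 19091 columns with at least 500 UMIs were taken. No sample column of another series was present. Cells had at least 500 gene UMIs, at least 300 genes and at most 15% mitochondrial UMIs, which left 17225 (MASH) and 18436 (chow) cells at 12 weeks and 19953 (MASH) and 27291 (chow) at 24 weeks.

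Scrublet (scanpy 1.11.5) removed 12.06% and 11.89% of the MASH and chow cells at 12 weeks and 10.63% and 23.85% at 24 weeks as doublets. Cells with several hashtags made up 20.39% to 27.83% of the filtered cells, and Scrublet removed 24.82% to 55.56% of them, so many were kept. The kept cells carried 65354645 (MASH) and 42988990 (chow) UMIs at 12 weeks and 87193629 (MASH) and 55916550 (chow) at 24 weeks. Counts scaled to 10000 per cell and log-transformed gave 2000 variable genes without the 10 members, 30 principal components, 15 neighbours and Leiden clusters at resolution 2 (anndata 0.12.19, leidenalg 0.10.2, igraph 0.11.9, scikit-learn 1.9.0). Clusters took the best marker set, with limits set after the clusters were seen; mixed clusters held 3.58% to 14.4% and unnamed ones 3.72% to 7.51% of cells.

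UMIs were summed per class and library. Exact Poisson, binomial and conditional binomial intervals at 95% used scipy 1.17.1, numpy 2.4.6 and pandas 2.3.3 under Python 3.11.15, and plots matplotlib 3.10.9. A count of 0 was set to a floor of 3 UMIs per library. The ratio script was tested on simulated data. No model or test was fitted, since each group is 1 library, and hashtags were never taken as replicates. All 10 members are described in the classes that gave most of their UMIs or where a call was made; list genes are named where called in such a class, at most 4 per list and class, and the 3 most like genes per member, of which 1 is not reported here. Alternatives changed doublet removal, the cell filter, the resolution, the hashtags used, the scaling, the UMI minimum and the fold. The members and lists were chosen with earlier results of these data known.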

Additional observations from a re-analysis of the deposited data

Results flagged for a closer look

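In 4 gene and class pairs the MASH over chow ratio lay beyond its counting interval on opposite sides of 1 at the 2 weeks. The change between weeks was not tested, since each ratio sets 1 library against 1. Il1a in endothelial-like cells was 1.41 at 12 weeks and 0.601 at 24 weeks. Il1b in non-classical monocyte-like cells was 0.729 and 1.17. Il1b in basophil- or mast-like cells was 0.261 and 2.30, from 2 to 7 cells with a UMI in each library. Il18r1 in NK- or ILC1-like cells was 1.48 and 0.836. ILC1-like cells were 1114 of 1353 cells of that class in MASH and 652 of 1387 in chow at 24 weeks. Within them the ratio was 1.91 and 1.44. NK-like cells lay on the same sides of 1 as the whole class, with more Il18r1 in MASH at 12 weeks and less at 24 weeks.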

How the results depend on the processing

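No paired analysis was possible because each group is 1 library and no result comes from a test. Leaving out a replicate was not possible for the same reason. Among cells with 1 hashtag, 5 pairs were called higher and 0 lower in MASH at 12 weeks (11 and 3 as reported), and 8 were called higher at 24 weeks (15 as reported, with 2 lower). Without doublet removal the 24-week counts were 24 higher and 5 lower. Against 24-week chow cells of hashtags 1 to 4 alone, 8 pairs were higher, and against hashtags 5 to 8, 9 higher and 1 lower. With hashtags 1 to 4 in both diets the counts were 4 higher and 0 lower, and with hashtags 5 to 8 in both diets 5 higher and 1 lower; this pair of settings was chosen after seeing the data. A minimum of 30 UMIs left 1 lower pair at 24 weeks, and a 1.5-fold rule gave 4.

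At 24 weeks, Il1r2 in classical monocyte-like cells turned from 0.341 to 1.011 without doublet removal, 1.055 with stricter cells, 1.61 with 1 hashtag, 1.18 against chow hashtags 5 to 8 and 1.47 with these in both diets. Il1rn in hepatocyte-like cells turned from 3.61 to 0.908 with 1 hashtag and 0.693 with hashtags 1 to 4 in both diets, and Il1b in basophil- or mast-like cells from 2.30 to 0.346 with 1 hashtag, where MASH had 0 UMIs set to the floor. The cause was not tested. The ratio of Il1rl1 in T-cell-like cells was called in every alternative run, at 5.90 to 9.04 at 12 weeks and 4.24 to 17.6 at 24 weeks, and that of Il1r1 in stellate-like cells at 12 weeks likewise. Il1rn in non-classical monocyte-like cells at 12 weeks was 1.71 without doublet removal and 1.496 with stricter cells, and not called. Depth limits genes with few UMIs, and only 68 of 170 pairs at 12 weeks and 67 of 140 at 24 weeks could be compared.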

Other observations

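Further differences between 24-week hashtag sets, a split chosen after seeing the data, were seen within diets. In chow, non-classical monocyte-like cells of hashtags 5 to 8 had 15.4 CPM of Il1rn and those of hashtags 1 to 4 had 154 CPM (0.100, 0.0118 to 0.381). These levels came from 2 and 50 UMIs in 46 and 90 cells. Conventional dendritic-like cells of chow had 18.6 CPM of Il1b with hashtags 5 to 8 and 92.8 CPM with hashtags 1 to 4 (0.200, 0.111 to 0.340, from 16 and 108 UMIs). In MASH, stellate-like cells had 80.0 CPM of Il1r1 with hashtags 5 to 8 and 210 CPM with hashtags 1 to 4 (0.381, 0.279 to 0.518). These were 47 and 36 cells. Endothelial-like cells of MASH had 44.4 CPM of Il1b with hashtags 5 to 8 and 1.69 CPM with hashtags 1 to 4 (26.3, 4.37 to 1072). That ratio rests on 30 UMIs against 1. These pairs were picked from a longer list, and the share of all genes called in the same splits is not given here.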
